A study of Mus musculus with 6 samples.

Results

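The insulin-like growth factor (IGF) system was examined in mouse pancreatic islets through 10 genes: the ligands Igf1 and Igf2, the receptors Igf1r and Igf2r, and the binding proteins Igfbp2, Igfbp3, Igfbp4, Igfbp5, Igfbp6 and Igfbp7. They were chosen with earlier results of these data known and were picked out by gene name in the annotated tables. All 10 were found among 47643 genes, 29725 of which had a count in any library. The libraries came from islets of wild-type mice (WT) and of mice with a transgene for the microRNA miR-203 that is specific to beta cells, the insulin-secreting cells (TG). Every mouse was labelled male, 10 weeks old and fasted for 12 h, and there were 3 libraries of each genotype. The promoter of the transgene is not given in the sources used here, nor is it stated whether each library came from 1 animal, so a p-value here speaks of the scatter of these samples only, and that scatter may be technical. The authors deposited the libraries as 2 tables, a first with WT 1, WT 2, TG 1 and TG 2 and a second with WT 3 and TG 3. Wherever 3 values follow each other for a genotype, they belong to its libraries 1, 2 and 3.

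Total counts ran from 20176456 to 27482339 per library. The tables differed in sex-linked transcripts despite the shared male label, and table was a term of the fit. Xist had at most 13 counts in each library of the first table and at least 25145 in each of the second. Summed Y-linked genes had 5463 to 7468 counts in the first table, 16 in WT 3 and 1 in TG 3. By these transcripts the second table looked female, so sex and table cannot be told apart in any difference between the tables. Reads at the Mir203 gene check the genotype labels, and the 3 TG libraries had 150 to 170 counts there, WT 2 and WT 3 had 0, and the library labelled WT 1 had 39. WT 1 below stands for that library as labelled. Beta-cell markers, including Ins1, Ins2 and Mafa, were found in every library, and their summed level in CPM, counts scaled to a common library total, was 116753 to 237951 CPM in WT and 54577 to 224048 CPM in TG. The sum is mostly Ins2 and Iapp, and TG 2 was near WT 1 and WT 2 for it. Mafa was at 249 CPM in TG 2 against 406 and 487 CPM in these 2 libraries. Ins1, Ins2, Ucn3, Slc2a2, Nkx6-1 and Pdx1 were also below both, Iapp (55879 CPM) was above both, and G6pc2 (1579 CPM) was between them. In the edgeR fit described below, 8 of the 9 markers were lower in TG, 3 at an unadjusted p under 0.05. In whole islets, fewer cells of a type and less RNA per cell cannot be told apart.

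IGF1 and IGF2 are secreted peptides related to insulin. Both signal through the receptor tyrosine kinase IGF1R, which acts on the PI3K-AKT-mTOR and MAPK pathways and supports growth and survival, and in islets IGF2 has been studied as an autocrine signal of beta cells. IGF2R does not signal in this way but takes up IGF2 for breakdown in lysosomes and also sorts lysosomal enzymes. The IGF-binding proteins hold the ligands outside the cell and can block or prolong their action, and proteases such as PAPP-A release the ligand by cutting them.

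Sequences of miR-203 and of the sites that match it are shown because the transgene expresses this microRNA and a microRNA usually pairs with messenger RNA through its seed, bases 2 to 8. The mature 3p strand, from RefSeq on GRCm38.p6 (chr12:112130927-112130948, plus strand), reads as follows, with the seed in capitals.
mmu-miR-203-3p: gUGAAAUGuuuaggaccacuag

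The longest annotated 3' UTR of each of the 10 genes (GENCODE M21, GRCm38) was searched on the sense strand for CATTTCA, which pairs with the whole seed, for CATTTCAA, which adds an A opposite base 1, and for ATTTCAA, which pairs with bases 2 to 7 and has that A. A CATTTCAA match contains the other pair of motifs and was counted once. Igf1 and Igfbp5 each held 2 CATTTCA matches, Igf2r held 1 ATTTCAA match, and none of the 10 genes held CATTTCAA. These sites are printed with the match in capitals.
Igf1, chr10:87934584-87934612, plus strand: gatggctcaatCATTTCAttggctctcaa
Igf1, chr10:87936023-87936051, plus strand: cttttaaaacaCATTTCAcatggttcctc
Igfbp5, chr1:72862277-72862305, minus strand: aggacgtcactCATTTCAtctcatttagg
Igfbp5, chr1:72861140-72861168, minus strand: ccaggtcacccCATTTCAgccttccaacc
Igf2r, chr17:12682417-12682445, minus strand: tgaagtattcaATTTCAAtaaagataaat

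Igf1r, whose 3' UTR is 7267 bases long, and Igf2, with 3050 bases, held none of the 3 motifs. Among tested genes with a 3' UTR of 75% to 125% of that length, 75.2% held at least 1 of them for Igf1r (408 genes) and 46.1% for Igf2 (2210 genes). The absence of a match says only that these letters are not in these windows. Of genes with a 3' UTR about as long as that of Igf1, 57.6% held at least 1 CATTTCA and 20.6% held 2 or more, and the shares for the length of Igfbp5 were 45.4% and 12.0%. Across all 13851 tested genes with a 3' UTR the median log2 fold change (TG over WT) was -0.0048, and in the 2395 with CATTTCA it was -0.016. The 2395 are part of the 13851, and these medians are not matched by length. The median 3' UTR was 2660 bases with CATTTCA and 1181 bases over all.

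Within the IGF genes the level per gene length spanned a wide range. Levels between genes were compared in the deposited FPKM (fragments scaled by gene length and by sequencing depth), within each library, because the tables were normalized separately. Igfbp7 was the highest of the 10 in all 6 libraries, at 120.3 to 144 FPKM in WT and 152 to 430 FPKM in TG. Igf2r, Igf1r and Igfbp5 came next in the WT libraries, at 17.5 to 19.3, 14.2 to 22.7 and 12.6 to 30.1 FPKM, and their order differed between WT libraries. Below them in each WT library came, in this order, Igfbp3 (3.35 to 5.46 FPKM), Igfbp4 (0.816 to 1.60 FPKM) and Igf2 (0.600 to 0.827 FPKM). Igf1, Igfbp2 and Igfbp6 lay below 0.7 FPKM in every library, and Igfbp2 in 1 TG library and Igfbp6 in 2 WT libraries were listed at 0.

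**Figure D1:**
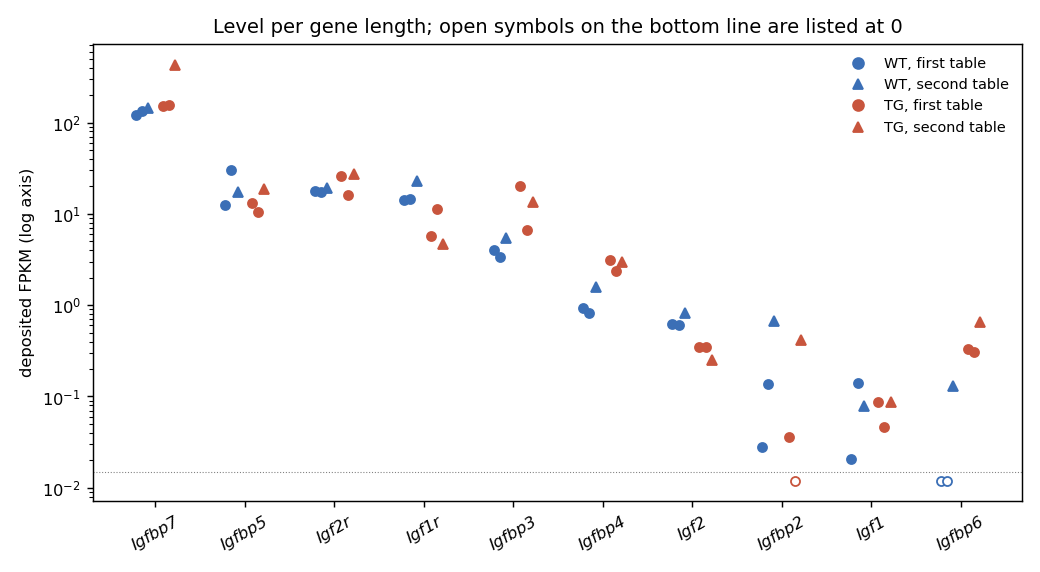
Deposited FPKM (log axis) of the 10 IGF genes in each library, ordered by the WT mean; circles are the first table, triangles the second, blue WT and red TG, and open symbols on the bottom line are listed at 0. Igfbp7 is the highest in all 6 libraries, and Igf1, Igfbp2 and Igfbp6 lie below 0.7 FPKM.

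For comparisons between the genotypes, counts were fitted with edgeR and levels are CPM, adjusted by TMM, a scaling between libraries. Of the 10 genes, 8 passed the low-count filter, and Igfbp2 and Igfbp6 did not. No gene passed a Benjamini-Hochberg adjusted p of 0.05 (0 of 16072, or 0%), and so none of the IGF genes did. At an unadjusted p under 0.05, edgeR had 3 tested IGF genes higher in TG (Igfbp3, Igfbp4 and Igfbp7), where 9.32% of all genes were, and 2 lower (Igf2 and Igf1r), where 4.81% were. In either direction that makes 5 of the 8, where 14.1% of all genes had such a p. The genes were chosen with earlier results of these data known, so the shares here and below are no test of the group. limma-voom gave the same counts, with 13.9% of all genes past that p. DESeq2 called 3 IGF genes after adjustment, where it called 4.45% of all genes in either direction: Igfbp3 and Igfbp4 as higher, where it called 3.73%, and Igf1r as lower, where it called 0.727%. For the 5 genes past the unadjusted threshold the 3 TG libraries lay wholly on one side of the 3 WT libraries. Among all tested genes TG lay wholly above WT in 6.96% and wholly below it in 6.42%.

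These counts depended on single libraries. Without TG 2, edgeR called 4 IGF genes after adjustment (13.2% of all genes in either direction), with Igf2r, Igfbp3 and Igfbp4 higher (8.82% of all genes) and Igf1r lower (4.39%). TG 2 was the TG library nearest to WT for Igf1r and Igfbp3, and it lay below WT for Igf2r. Leaving it out widens these differences, so the p-values without TG 2, here and below, show dependence on that library and are no separate evidence. Without the library labelled WT 1, which had Mir203 reads, edgeR called 0 IGF genes after adjustment. At an unadjusted p under 0.05 that fit had 2 higher (Igfbp3 and Igfbp4, with 7.93% of all genes) and 2 lower (Igf2 and Igf1r, with 2.37%). Without the second table no IGF gene was called after adjustment either, and Igfbp3 and Igfbp4 had an edgeR unadjusted p under 0.05, as did 5.33% of all genes, whereas Igf2 and Igf1r did not. A fit that kept genes with low counts called 4 IGF genes as higher (4.37% of all genes) and 2 as lower (1.25%), and its bias-adjusted form called none of them (6 had an unadjusted p under 0.05, where 10.1% of all genes did).

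**Figure D2:**
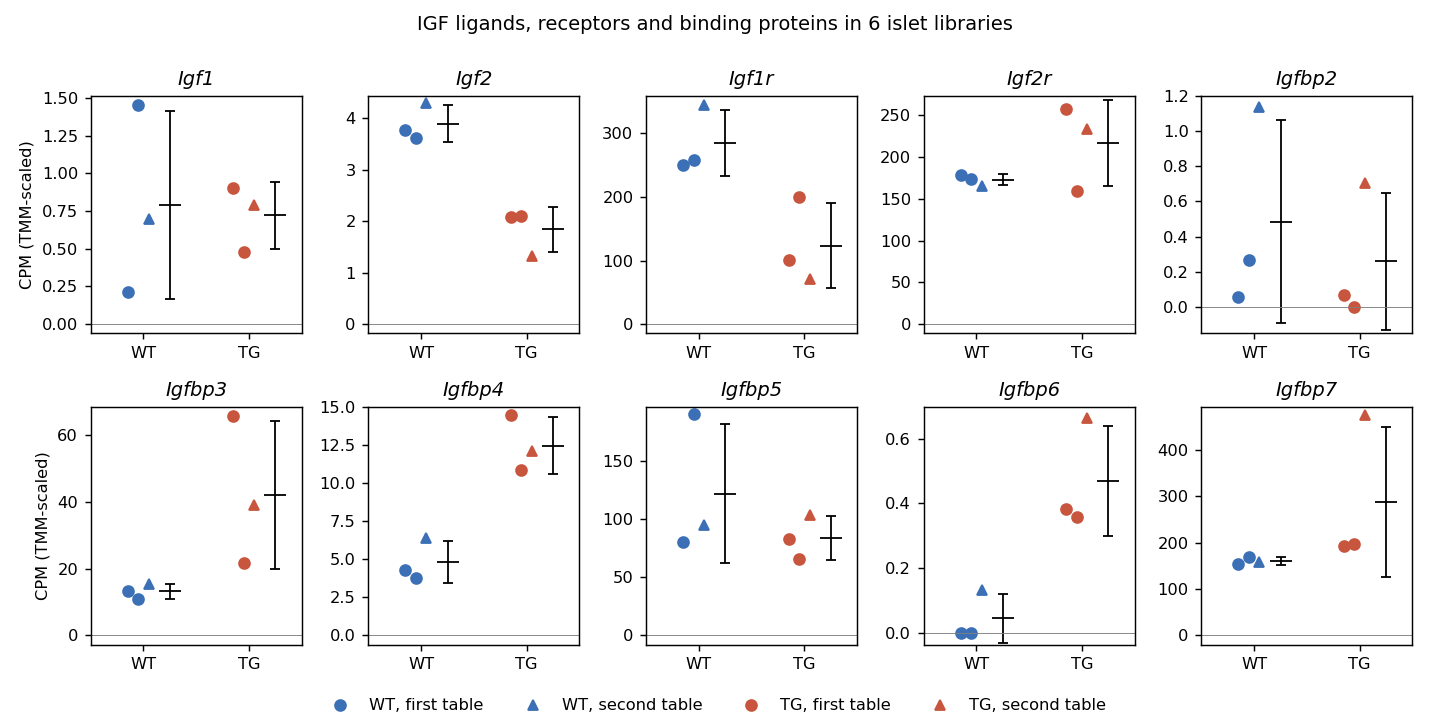
CPM of each of the 10 IGF genes by library, on separate linear axes; circles are the first table, triangles the second, and the bar is the mean with 1 SD (n = 3). TG lies below every WT library for Igf2 and Igf1r and above every WT library for Igfbp3, Igfbp4, Igfbp6 and Igfbp7, while the groups overlap for Igf1, Igf2r, Igfbp2 and Igfbp5.

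Of the ligands, Igf2 (ENSMUSG00000048583; chromosome 7, 142650766 to 142666816, minus strand) was lower in every TG library. It ran 3.78, 3.61 and 4.29 CPM over the WT libraries and 2.09, 2.10 and 1.33 CPM over the TG libraries. The groups did not overlap, and TG 2 was as low as TG 1. These levels rested on 70, 82 and 98 counts in WT and 60, 53 and 32 in TG. The means were 3.89 ± 0.355 CPM in WT and 1.84 ± 0.443 CPM in TG (SD, n = 3), with a log2 fold change of -1.10 (SE 0.29). The edgeR adjusted p was 0.227, and DESeq2 gave 0.0572.

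Igf2 lies 11840 bases from Ins2, the main mouse insulin gene, on the same strand. In the first table Ins2 was at 156245 and 168105 CPM in WT and at 23309 and 149455 CPM in TG. In TG 2 Ins2 was thus just below both WT libraries, while Igf2 was at the level of TG 1. In the second table Ins2 was at 79299 CPM in WT 3 and 27237 CPM in TG 3. A link between Ins2 and Igf2 levels was not tested. Igf2os, the antisense gene that overlaps Igf2, had 1 to 4 counts per library. H19, the noncoding RNA imprinted together with Igf2, had 2 counts in TG 1 and 0 in each other library.

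Igf1 (ENSMUSG00000020053; chromosome 10, 87858265 to 87937042, plus strand) was low in every library. It had 4, 33 and 16 counts over the WT libraries and 26, 12 and 19 over the TG libraries. The lowest and the highest library were both WT, so the groups overlapped. The log2 fold change was -0.14 (SE 0.65, edgeR adjusted p = 0.942), and it was above 0 without WT 2 (0.87) and without TG 2 (0.11). Myeloid cells are a known source of IGF1. The 10 myeloid markers summed to 88.0, 201 and 91.3 CPM in WT and to 202, 116 and 211 CPM in TG, with none at 0. C1qa was the largest part in every library. It ran 48.4, 67.1 and 45.1 CPM in WT and 113, 67.0 and 148 CPM in TG. By gene, 7 of 10 had higher fitted values in TG and 3 had lower ones. At an unadjusted p under 0.05 in edgeR, C1qa and Cd14 were higher and Cd68 was lower. For Cd68 every TG library was below every WT library, whereas the groups overlapped for C1qa and Cd14. The part of myeloid cells in the Igf1 level was not tested.

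Igf1r, the signalling receptor (ENSMUSG00000005533; chromosome 7, 67952827 to 68233668, plus strand), was also lower in every TG library. It ran 251, 258 and 345 CPM over the WT libraries and 100.4, 199 and 71.1 CPM over the TG libraries. TG 2 was closest to the WT range, and TG 3 was farthest from it. The means were 285 ± 52.4 CPM in WT and 124 ± 67.3 CPM in TG (SD, n = 3), a ratio of 2.30 of WT over TG, and the log2 fold change was -1.26 (SE 0.39). The edgeR adjusted p was 0.248, whereas DESeq2 gave 0.0210, and without TG 2 edgeR gave -1.74 with an adjusted p of 0.00589. Without TG 3 the log2 fold change was -0.76, but with table as a term that fit compares the genotypes in the first table only.

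In the first table alone Igf1r had a log2 fold change of -0.76 (SE 0.34, edgeR adjusted p = 0.952), and the single pair of the second table differed by -2.28. The difference between the tables had an edgeR unadjusted p of 0.0436 and an adjusted p of 0.9999. At that unadjusted threshold 2.28% of all genes differed between the tables. Of the IGF genes, Igf1r and Igfbp7 were past it.

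Igf2r, the clearance receptor (ENSMUSG00000023830; chromosome 17, 12682406 to 12769664, minus strand), had overlapping groups. It ran 179, 174 and 166 CPM over the WT libraries and 257, 159 and 233 CPM over the TG libraries. TG 1 and TG 3 were above all WT libraries and TG 2 was below them. The log2 fold change was 0.33 (SE 0.20, edgeR adjusted p = 0.507), and without TG 2 it was 0.52 (adjusted p = 0.0439). Igf2r overlaps the antisense gene Airn, which had 216 to 354 counts per library, and the strand setting of the counting is not given in the sources used here.

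Set against each other in FPKM, Igf2r over Igf1r ran 1.27, 1.20 and 0.854 over the WT libraries and 4.56, 1.42 and 5.84 over the TG libraries. The ratio is taken within a library and does not depend on scaling between libraries. Every TG library was above every WT library, TG 2 by little. The means were 1.11 ± 0.222 and 3.94 ± 2.27 (SD, n = 3). The ratio was chosen after the levels of both genes were seen, and it is given with no test. The insulin receptor gene Insr, a close relative of Igf1r whose product forms hybrid receptors with IGF1R and which was also named after its values were seen, was at 55.8 ± 6.63 CPM in WT and 55.7 ± 8.93 CPM in TG, with a log2 fold change of 0.00 (SE 0.16).

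**Figure D3:**
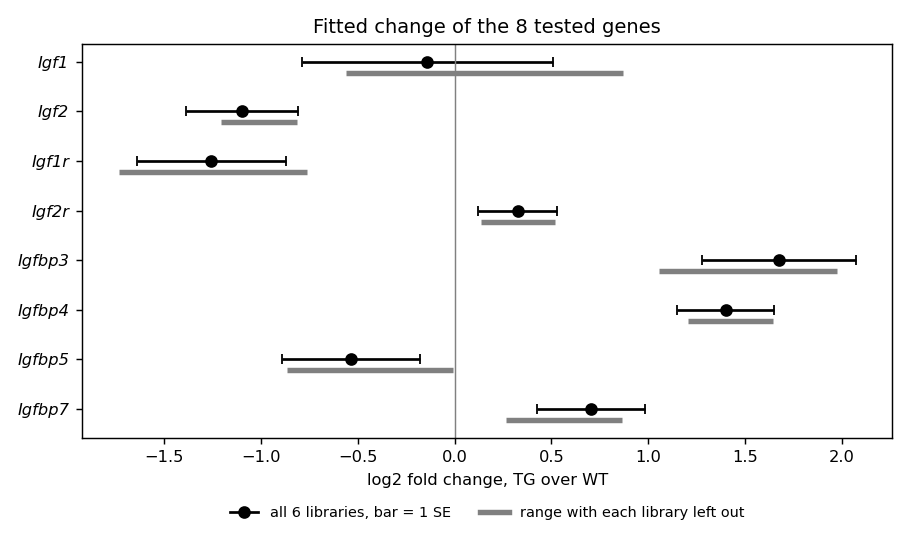
Log2 fold change (TG over WT) of the 8 tested IGF genes; points are the fit with all 6 libraries, bars 1 SE, and grey lines the range with each library left out. Igf2 and Igf1r stay below 0 and Igf2r, Igfbp3, Igfbp4 and Igfbp7 above 0 whichever library is left out, while the range of Igf1 crosses 0.

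Among the binding proteins Igfbp4 had the smallest p, the 44th lowest of 16072 genes (unadjusted p = 0.000886 in edgeR). Igfbp4 (ENSMUSG00000017493; chromosome 11, 99041244 to 99054392, plus strand) encodes a protein known mainly as an inhibitor of IGF action and a substrate of PAPP-A. It ran 4.32, 3.78 and 6.39 CPM over the WT libraries and 14.5, 10.8 and 12.1 CPM over the TG libraries. All TG libraries were well above all WT libraries, TG 2 included. The means were 4.83 ± 1.38 CPM and 12.5 ± 1.84 CPM (SD, n = 3), 2.58 times higher in TG, with a log2 fold change of 1.40 (SE 0.25, edgeR adjusted p = 0.199, DESeq2 0.000257). With each library left out the log2 fold change ran from 1.21 to 1.64, and without TG 2 the edgeR adjusted p was 0.0146.

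Igfbp3 (ENSMUSG00000020427; chromosome 11, 7206086 to 7213923, minus strand), the main IGF carrier of blood, had the largest fitted fold change of the 8 tested genes. It ran 13.3, 11.0 and 15.5 CPM over the WT libraries and 65.8, 21.7 and 39.1 CPM over the TG libraries. All TG libraries were above WT, with TG 2 nearest to it. The means were 13.3 ± 2.25 CPM and 42.2 ± 22.2 CPM (SD, n = 3), and the log2 fold change was 1.68 (SE 0.40, edgeR adjusted p = 0.204, DESeq2 0.00141). Without TG 2 it was 1.97 (edgeR adjusted p = 0.00477), and without TG 1 it was 1.05 (0.512). The 11 markers of stellate cells and fibroblasts, such as Col1a1, Dcn and Pdgfra, summed to 27.9, 72.3 and 83.6 CPM over the WT libraries and to 185, 36.0 and 152 CPM over the TG libraries. TG 2 was thus within the WT range for this sum but above it for Igfbp3 and Igfbp4. The single markers were not all within that range. In TG 2 Dcn was above every WT library, and Col1a2, Cspg4 and Des were below every WT library. No marker of this list was at 0, 9 of 11 had higher fitted values in TG, and 4 had an unadjusted p under 0.05.

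Igfbp7 (ENSMUSG00000036256; chromosome 5, 77349240 to 77408041, minus strand), a secreted relative with weak affinity for IGFs that is abundant in blood vessels, was set apart by TG 3. It ran 153, 169.5 and 158 CPM over the WT libraries, and it reached 192 and 197 CPM in TG 1 and TG 2 but 476 CPM in TG 3. The WT libraries were close together and every TG library was above them. The means were 160.3 ± 8.38 CPM and 288 ± 163 CPM (SD, n = 3), with a log2 fold change of 0.70 (SE 0.28, edgeR adjusted p = 0.333). Without TG 3 it was 0.27, and without WT 3 it was 0.26. Within the first table, which is what remains to compare in either case, it was 0.27 (SE 0.19, edgeR adjusted p = 0.9997), and the second table's pair differed by 1.59. The difference between the tables had an unadjusted p of 0.00760 and an adjusted p of 0.9999 in edgeR.

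The 10 endothelial markers, among them Pecam1, Cdh5 and Plvap, summed to 315, 437 and 277 CPM over the WT libraries and to 357, 324 and 580 CPM over the TG libraries. The highest library was TG 3 for both Igfbp7 and the endothelial sum, while TG 1 and TG 2 were within the WT range for the sum and above it for Igfbp7. Single markers did not all follow the sum. In TG 1 Pecam1 (87.0 CPM), Cdh5 (67.3 CPM), Vwf, Tek and Esam were above every WT library, and Kdr (63.3 CPM) and Emcn (14.3 CPM) were below every WT library. No endothelial marker was at 0, 9 of 10 had higher fitted values in TG, and 1 had an unadjusted p under 0.05. The part of endothelial or stellate cells in the binding protein levels was not tested. In FPKM the 6 binding proteins summed to 138, 168 and 169 in WT and to 188, 175 and 466 in TG. Within each table every TG sum was above every WT sum. The FPKM of the tables were normalized separately, and this sum is also given with no test. Igfbp7 made up 79.5% to 88.8% of the sum in 5 libraries and 92.2% in TG 3. Igfbp7 overlaps the end of the neighbouring gene Polr2b by 85 bases, and the antisense gene Gm43261, which lies within it, had 0 to 6 counts per library.

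Markers of other cells also differed between the genotypes. Duct markers summed to 687 to 1044 CPM in WT and 1487 to 1950 CPM in TG, delta and PP cell markers to 8358 to 9567 and 13229 to 36362 CPM, and Schwann cell markers to 11.5 to 16.1 and 16.2 to 20.9 CPM, with TG above WT in all 3 sums. The Schwann ranges were only just apart. The delta and PP sum was mostly Ppy, Pyy and Sst, and the groups overlapped for the delta markers Sst and Hhex. By gene, 7 of 7 tested duct markers, 5 of 5 delta and PP markers and 3 of 4 Schwann markers had higher fitted values in TG, and 3 of each list had an unadjusted p under 0.05. S100b, a Schwann marker, was at 0 in 1 library. The mesothelial sum, 51.7 to 76.1 CPM in WT and 14.3 to 41.9 CPM in TG, was almost wholly Msln, the only 1 of these markers tested, and Upk3b was at 0 in 3 libraries, Lrrn4 in 4 and Wt1 in 1. The ranges overlapped for alpha cell markers (18971 to 27414 CPM in WT, 23205 to 48733 CPM in TG) and for acinar markers (139 to 6495 and 284 to 4450 CPM). The acinar sum split by table, at 2908, 6495, 3343 and 4450 CPM in WT 1, WT 2, TG 1 and TG 2. It was 139 CPM in WT 3 and 284 CPM in TG 3. Acinar content, like sex, thus cannot be told apart from table in a difference between the tables. The alpha sum was mostly Gcg. By gene, 6 of 6 alpha markers had higher fitted values in TG, and 2, Ttr and Tmem27, had an unadjusted p under 0.05. For these 2 every TG library was above every WT library. Of 9 acinar markers 6 had higher fitted values, and 0 had such a p. The part of these cells in the levels of the IGF genes was not tested.

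**Figure D4:**
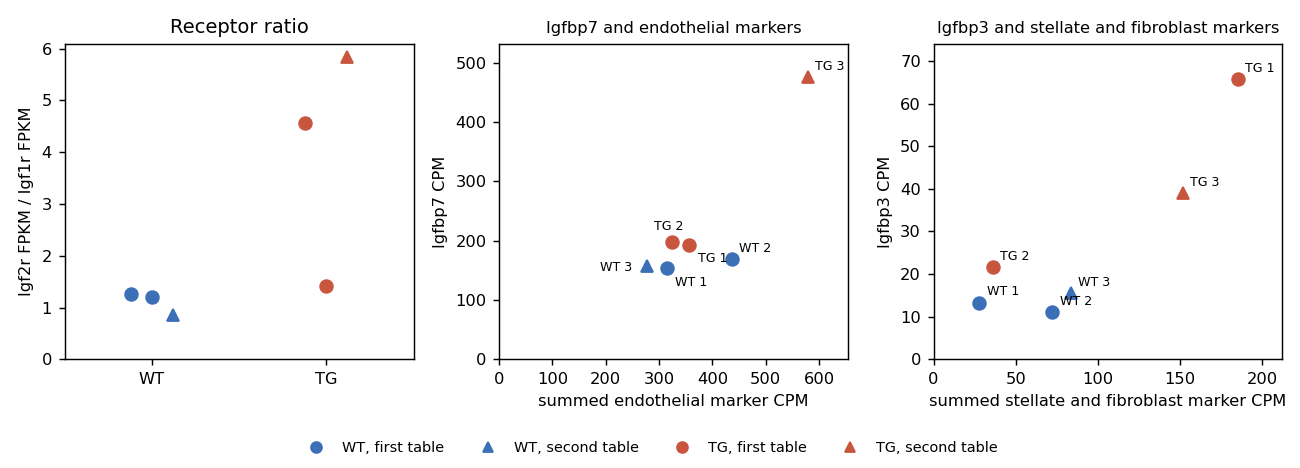
Left, Igf2r FPKM over Igf1r FPKM by library; middle and right, CPM of Igfbp7 against the summed CPM of 10 endothelial markers and of Igfbp3 against that of 11 stellate and fibroblast markers, 1 point per library (circles first table, triangles second). TG 3 is the highest library for Igfbp7 and for endothelial markers, and TG 2 has more Igfbp3 than any WT library at a marker sum of 36.0 CPM, inside the WT range.

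Igfbp5 (ENSMUSG00000026185; chromosome 1, 72857932 to 72874884, minus strand), a binding protein held in extracellular matrix, had overlapping groups. It ran 79.8, 189.7 and 94.9 CPM over the WT libraries and 83.1, 65.4 and 103 CPM over the TG libraries. WT 2 stood apart, and the other 5 libraries lay between 65.4 and 103 CPM. The log2 fold change was -0.54 (SE 0.36, edgeR adjusted p = 0.531), and without WT 2 it was -0.01.

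Igfbp6 (ENSMUSG00000023046; chromosome 15, 102144362 to 102149511, plus strand), which prefers IGF2 over IGF1, was too low for the test. It had 0, 0 and 3 counts over the WT libraries and 11, 9 and 16 over the TG libraries. The counts of 0 allow up to 0.162 CPM in WT 1 and 0.132 CPM in WT 2 (3 counts), and the TG libraries were at 0.383, 0.357 and 0.664 CPM. Over the groups, 36 counts in TG against 3 in WT gave a ratio of 9.86 with a 95% exact interval of 3.11 to 50.03, which covers counting error only. Igfbp2 (ENSMUSG00000039323; chromosome 1, 72824503 to 72852474, plus strand), a major circulating binding protein, was higher in the second table in both genotypes. The first table held 1 and 6 counts for its WT libraries and 2 and 0 for its TG libraries, and the second held 26 for WT 3 and 17 for TG 3.

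The rest of the pathway was read from lists of 47 genes, of which 42 were tested. Of these 42, 4 were higher in TG at an unadjusted p under 0.05 in edgeR (9.52%, where all genes had 9.32%) and 6 were lower (14.3%, where all genes had 4.81%). The median log2 fold change of the 42 was 0.04, against -0.01 over all genes tested. None passed the adjusted threshold in edgeR or limma-voom, and DESeq2 called 2, Igfals and Irs2. The share of higher genes was thus near the background. These lists too were chosen with earlier results of these data known, so neither share is a test of the pathway.

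The 6 tested genes of carriage and release held 3 of these 10. Igfals, the acid-labile subunit that joins IGF and IGFBP3 in a large complex in blood, ran 74.1, 56.0 and 90.2 CPM over the WT libraries and 17.2, 45.8 and 24.2 CPM over the TG libraries. TG was below WT in every library, as for Igf1r, with TG 2 closest to WT. Its log2 fold change was -1.33 (SE 0.38, edgeR adjusted p = 0.238, DESeq2 0.0164). Pappa, the protease that cuts IGFBP4, was at 0.673 ± 0.179 CPM in WT and 2.07 ± 1.40 CPM in TG (SD, n = 3), and TG 2 (0.714 CPM) was inside the WT range. Stc2, which encodes stanniocalcin 2, an inhibitor of that protease, was at 1.05 ± 0.763 and 2.58 ± 0.548 CPM, and its groups did not overlap.

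Among receptors and adaptors, Irs2, an adaptor that links the receptors to PI3K, was at 48.4 ± 8.12 CPM in WT and 95.8 ± 44.0 CPM in TG, with TG 2 at 47.3 CPM. Its log2 fold change was 0.95 (SE 0.30, edgeR adjusted p = 0.256, DESeq2 0.0498). Grb14, an inhibitory adaptor, was at 23.2 ± 2.47 and 34.9 ± 7.80 CPM. Insrr, an insulin receptor relative, was at 243 ± 120.4 CPM in WT and 150.4 ± 92.3 CPM in TG (SD, n = 3), and TG was below WT within each table.

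Downstream genes had smaller fold changes. Akt1, Tsc1, Tsc2 and Mtor had log2 fold changes of -0.35 (SE 0.13), -0.35 (SE 0.14), -0.33 (SE 0.12) and -0.41 (SE 0.13), with edgeR adjusted p between 0.249 and 0.323. In all 4, TG was below WT within each table, which 13.4% of all genes tested showed. No other gene of the PI3K, AKT and FOXO list (15 tested) or of the TSC and mTOR list (10 tested) had an unadjusted p under 0.05. Their median log2 fold changes were -0.01 and 0.00.

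**Figure D5:**
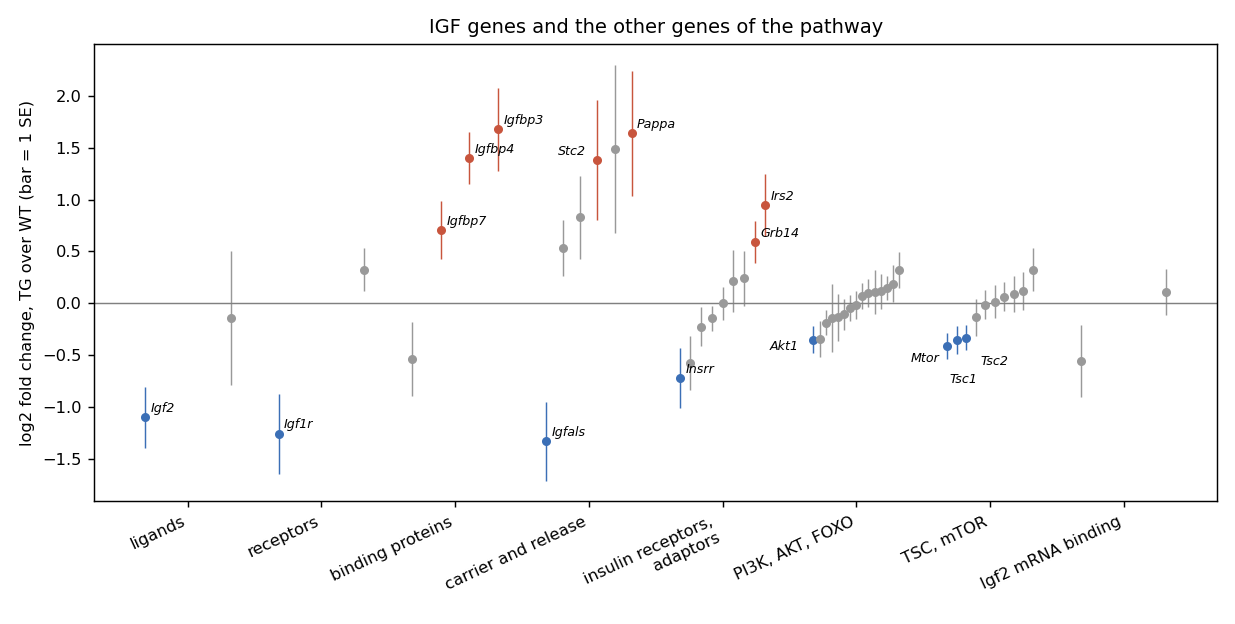
Log2 fold change (TG over WT) with 1 SE for the 8 tested IGF genes and the 42 tested genes of the pathway lists, grouped by role; red and blue mark genes higher or lower at an unadjusted p under 0.05, grey the rest. Igfals lies near Igf1r, while the downstream genes lie close to 0.

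The genes whose pattern over the 6 libraries was most like those of Igf2, Igf2r and Igfbp7, the ligand, receptor and binding protein with the highest mean FPKM in WT, were sought by Pearson's r of log2 CPM after subtracting the WT mean of the same table, which fixes WT 3 at 0. Igf1r was close to Igf2r in that mean (17.2 against 18.3 FPKM) and above it in WT 3. For Igf2 they were Foxk2, Jag2 and Plekhh1 (r from 0.997 to 0.998), for Igf2r Stox2, Magi1 and Ubqln2 (0.998 to 0.999), and for Igfbp7 Pgbd5, Upp1 and Zbtb1 (0.997 to 0.9996). With 6 libraries such values were frequent: r was at least 0.9 for 741 of 11172 genes with Igf2, and for 905 and 444 of 11171 with Igf2r and Igfbp7.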

How the data were processed

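Messenger RNA was sequenced from 6 islet libraries. Per the submitters' processing notes the tools were CASAVA 1.8 and HISAT2 and the build GRCm38. Which program counted the reads, with what strand setting and on which annotation, is not given in the sources used here. The deposited raw counts were whole numbers per gene. The authors also deposited a normalized signal, close to the count times 1 factor per library (median 0.819 to 1.26) and made separately for each table, and FPKM values scaled from it by gene length. The log2 fold changes and CPM were computed here from the deposited counts. The FPKM served to compare genes within a library and to sum the binding proteins.

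Both count tables were merged by gene identifier and fitted across all genes with edgeR 4.0.16 in R 4.3.3 (filterByExpr, TMM, quasi-likelihood F-test, table and genotype as terms, Benjamini-Hochberg adjustment over 16072 genes). Each SE was obtained from the size of the log2 fold change over the root of its F. DESeq2 1.42.0 and limma 3.58.1 (voom) were alternatives. The second table holds 1 library per genotype, so tests involving it borrow the spread of the first. The replicate numbers are in accession order and pair no samples. Named were the 10 IGF genes, pathway genes at an unadjusted p under 0.05, and the 3 genes most like the ligand, receptor and binding protein with the highest mean FPKM in WT (mean CPM of at least 5 and prior count 2). The members and lists were chosen with earlier results of these data known.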

Additional observations from a re-analysis of the deposited data

How the results depend on the processing

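Under 16 other settings, of which 1 was added after seeing the data (bias-adjusted edgeR without the low-count filter), the fitted directions of Igf2, Igf1r, Igf2r, Igfbp3, Igfbp4, Igfbp5 and Igfbp7 were the same as in the main comparison. That of Igf1 was reversed in limma-voom (0.14), without WT 2 (0.87) and without TG 2 (0.11), with a range of -0.56 to 0.87 when each library was left out. Adjusted calls came from 3 alternatives. DESeq2 called 3 IGF genes, 2 pathway genes and 759 genes in all. edgeR without the low-count filter called 6, 7 and 1672, whereas its bias-adjusted form on the same genes called 0 of each, with 6 IGF genes and 3006 genes at an unadjusted p under 0.05. With each library left out, calls ran from 0 to 4 for IGF genes, from 0 to 8 for pathway genes and from 0 to 2188 for all genes, and each highest count came without TG 2. The first table alone gave 0 called genes (870 at an unadjusted p under 0.05), and 0 to 1267 with each of its libraries left out. The Igf1r, Igfbp3 and Igfbp4 calls occurred in all 3 of these alternatives, those of Igf2, Igfbp6 and Igfbp7 only without the filter, and that of Igf2r only without TG 2. The cause of these differences was not tested. The difference between tables called 0 genes in limma-voom and 0 in edgeR, which had 366 at an unadjusted p under 0.05. The order of levels in WT was the same from the counts per gene length. With the level of acinar markers as a covariate Igfbp5 had an unadjusted p of 0.0368 and Igfbp7 one of 0.0594. Depth limits Igf1, Igfbp2 and Igfbp6 most. No paired analysis was possible because the replicate numbers only name the samples in accession order, and the labels share no number between genotypes.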
